A study of Mus musculus with 14 samples.

Results

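Cathepsins A, B, C, D, H, L, S and Z and legumain are the proteases of the lysosome followed here, taken as the 9 genes with the symbols Ctsa, Ctsb, Ctsc, Ctsd, Ctsh, Ctsl, Ctss, Ctsz and Lgmn. All 9 were found among the 17890 genes of the deposited table, and all 9 passed the filter on low counts. The table holds RNA sequencing of cultures labelled as bone marrow-derived macrophages from male C57BL/6J mice, an inbred strain, which were 8 weeks of age when the study began. The diabetic group had received streptozotocin, a drug that destroys the beta cells of the pancreas, by injection on each of 5 days in doses of 42 to 45 mg/kg. Its mice counted as diabetic above 16.9 mmol/L of non-fasted blood glucose and stayed hyperglycaemic for 6 weeks, while the healthy group served as control. Marrow progenitors of both groups were then grown for 7 days with M-CSF, the growth factor that drives macrophage development, in DMEM at 5 mmol/L glucose, so that the culture glucose was the same in both.

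The comparison rests on 4 libraries whose names carry a D, the initial of diabetic, and 4 whose names carry an M. No label explains M, which was assigned to the healthy mice because that was the only other group. Directions are those of D against M, and they would all be opposite were the letters assigned the other way round. Whether the 4 libraries of a group stand for 4 animals is not stated in the labels. The p-values therefore set the difference between the groups only against the scatter of these samples, part of which may be technical. The 3 diabetic-trained and 3 untrained samples of a second phase were not analysed here.

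Lysosomal cathepsins are made as inactive proenzymes, carried to the lysosome largely by mannose 6-phosphate receptors, and activated there by cleavage in the acidic lumen. Cathepsins B, C, H, L, S and Z are cysteine proteases of the papain family, cathepsin D is an aspartic protease and cathepsin A a serine carboxypeptidase. Legumain cuts after asparagine and takes part in the processing of several cathepsins. In macrophages these enzymes degrade engulfed material and trim antigens, cystatins inhibit the cysteine members, and cathepsin C activates the serine proteases stored in granules of neutrophils, mast cells and cytotoxic lymphocytes.

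The members did not move as one group. Ctsc, Ctsl and Ctsh were higher in the D libraries, Lgmn was lower, and Ctss, Ctsa, Ctsb, Ctsz and Ctsd did not pass the test. Values are CPM, a gene's counts scaled to a common library size with TMM factors, and genes were called at 0.05 after Benjamini-Hochberg adjustment over all genes in the quasi-likelihood test of edgeR. The 3 higher members are 33.3% of the 9, beside 17.4% of the 12839 genes tested, and the 1 lower member is 11.1%, beside 17.3%. In either direction 34.7% of all genes were called, so a call was common in this comparison. The CPM of D and M did not overlap in 3 members (33.3%), all with D above M, beside 34.7% of all genes without overlap in either direction. In bulk RNA, fewer cells of a type and less RNA per cell cannot be told apart, and this holds for each value below. The median log2 fold change was -0.02 over the members and -0.03 over all genes tested. On library totals without TMM factors the median over all genes moved by -0.10, and 31.3% of the called genes were higher in place of 50.1%. With log2 TPM or FPKM values that share was 30.9% to 33.2%.

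**Figure D1:**
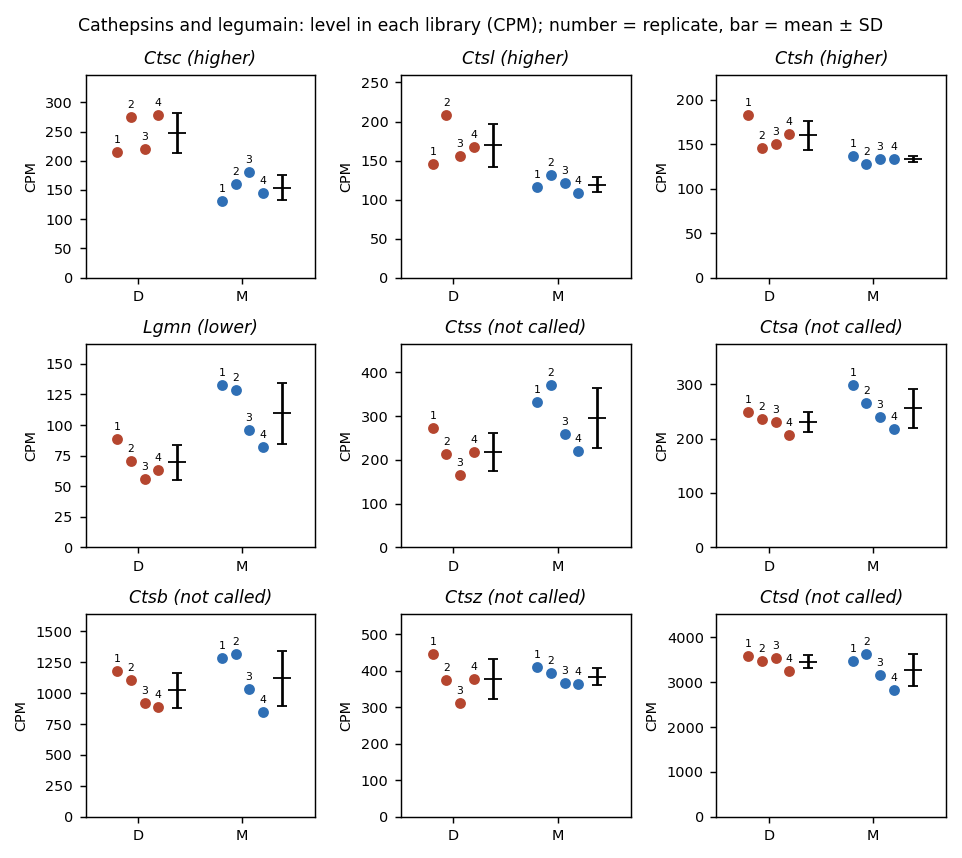
CPM of each of the 9 members in the 4 D and 4 M libraries (numbered points), with mean and SD bars, one panel and one linear axis from 0 per gene. The D points of Ctsc, Ctsl and Ctsh lie above all M points, and those of the other 6 members overlap with the M points.

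Ctsc (gene 13032, GRCm38 chr7:88278024-88315861) encodes cathepsin C, also called dipeptidyl peptidase I, which removes dipeptides from the ends of proteins and activates granule proteases. D replicates 1 to 4 stood at 215, 276, 220 and 278 CPM, and M replicates 1 to 4 at 130, 160, 181 and 145 CPM. Every D library was above every M library. The mean was 247 ± 34.2 CPM in D and 154 ± 21.5 CPM in M (SD, n = 4 each), 1.60-fold higher in D. The log2 fold change was 0.68 ± 0.12 (SE; 95% interval 0.42 to 0.95; edgeR adjusted p = 0.00201). It passed the threshold in 22 of 22 other analyses tried, with log2 fold changes of 0.44 to 0.87. The lower end came from log2 FPKM values and the upper end from leaving out D replicates 1 and 3.

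Ctsl (gene 13039, chr13:64361890-64370772) encodes cathepsin L, an endopeptidase with broad activity in lysosomal protein turnover. D replicates 1 to 4 held 146, 208, 156 and 168 CPM, and M replicates 1 to 4 held 116, 131, 121 and 109 CPM. The groups did not overlap, and D replicate 2 was the highest of the 8. The means were 170 ± 27.2 and 119 ± 9.45 CPM, 1.42-fold higher in D, with a log2 fold change of 0.51 ± 0.11 (95% interval 0.27 to 0.75; edgeR adjusted p = 0.00535). The call held in 21 of 22 other analyses and was lost when only curated RefSeq transcripts were summed, where the log2 fold change was 0.55 (adjusted p = 0.133; range over all alternatives 7.99e-05 to 0.133). In that analysis Ctsl keeps a single transcript with 1.54% to 2.41% of its counts.

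Ctsh (gene 13036, chr9:90054267-90076095) encodes cathepsin H, mainly an aminopeptidase. The D libraries held 183, 146, 151 and 162 CPM and the M libraries 137, 128, 134 and 134 CPM. No D value fell among the M values, but the step between D replicate 2 and M replicate 1 was small. The means were 160 ± 16.4 and 133 ± 3.78 CPM, and the log2 fold change was 0.27 ± 0.08 (95% interval 0.09 to 0.44; edgeR adjusted p = 0.0231), a 1.20-fold rise. This call was the least stable of the 3, holding in 14 of 22 other analyses, with adjusted p-values of 0.00233 to 0.185. It was lost on library totals (0.16, adjusted p = 0.163), on log2 TPM (0.17, adjusted p = 0.142 to 0.143), on log2 FPKM (0.15, adjusted p = 0.185) and where each gene was read from its most abundant transcript (0.24, adjusted p = 0.0526). It was also lost without M replicate 2 (0.25, adjusted p = 0.0662), M replicate 3 (0.27, adjusted p = 0.0522) or M replicate 4 (0.27, adjusted p = 0.0564).

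Lgmn (gene 19141, chr12:102394082-102439728), which encodes legumain, was the member that fell. From replicate 1 to 4, CPM values of 88.8, 70.3, 55.6 and 63.0 were measured in the D libraries and 133, 128, 95.6 and 81.8 in the M libraries. D replicate 1 was above M replicate 4, and all other D values were below all M values. The means were 69.4 ± 14.3 and 110 ± 24.9 CPM, and the log2 fold change was -0.66 ± 0.18 (95% interval -1.07 to -0.25; edgeR adjusted p = 0.0208), or 0.633 of the M level. The call held in 17 of 22 other analyses, with adjusted p-values of 0.00110 to 0.0678. It was lost without D replicate 3 (-0.55, adjusted p = 0.0678), D replicate 4 (-0.60, adjusted p = 0.0570), M replicate 1 (-0.55, adjusted p = 0.0538) or M replicate 2 (-0.58, adjusted p = 0.0543), and without D replicates 1 and 3 together (-0.70, adjusted p = 0.0568).

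Ctss (gene 13040, chr3:95526786-95556405) encodes cathepsin S, which cleaves the invariant chain of major histocompatibility complex class II and is active at neutral pH. Its level was 273, 214, 165 and 218 CPM in D and 332, 372, 260 and 219 CPM in M. The ranges overlapped, since D replicate 1 exceeded M replicates 3 and 4. The means were 218 ± 44.0 and 296 ± 68.9 CPM with a log2 fold change of -0.44 ± 0.18 (95% interval -0.86 to -0.03), which missed the threshold (edgeR adjusted p = 0.0894). It passed in 2 of 22 other analyses, with the replicate number as a block (-0.44, adjusted p = 0.0366) and without M replicate 4 (-0.56, adjusted p = 0.0358), and the adjusted p ranged up to 0.230. The difference between Ctss and Lgmn in passing the test is not a test of a difference between them.

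**Figure D2:**
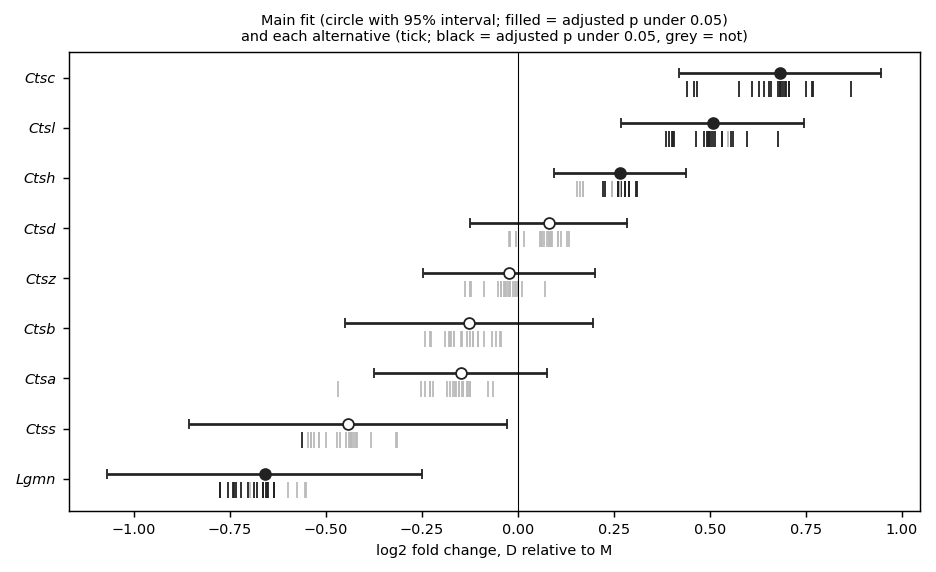
Log2 fold change of D relative to M for each member (circle, filled where the adjusted p was under 0.05) with its unadjusted 95% interval from edgeR, and ticks below for the 22 other analyses, black where called. The intervals of Ctsc, Ctsl and Ctsh lie above 0, those of Lgmn and Ctss below 0, and those of Ctsa, Ctsb, Ctsz and Ctsd span it.

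The other 4 members differed by less than the test could call. Ctsa (gene 19025, chr2:164832872-164841032) encodes the carboxypeptidase that also protects the sialidase Neu1 and beta-galactosidase in a complex, and ran from 206 to 249 CPM in D and 217 to 299 CPM in M. Its log2 fold change was -0.15 ± 0.10 (95% interval -0.37 to 0.08; edgeR adjusted p = 0.278). Ctsb (gene 13030, chr14:63122462-63145923) encodes an endopeptidase that also removes dipeptides from the ends of proteins. Ctsb ran from 888 to 1182 CPM in D and 850 to 1315 CPM in M, at -0.13 ± 0.15 (interval -0.45 to 0.20, edgeR adjusted p = 0.520). For Ctsz (gene 64138, chr2:174427494-174439039), a carboxypeptidase, the ranges were 312 to 445 CPM in D and 362 to 411 CPM in M, so the D values spread on both sides of M. Its log2 fold change was -0.02 ± 0.10 (interval -0.25 to 0.20; edgeR adjusted p = 0.874). Ctsd (gene 13033, chr7:142375910-142387827), the main aspartic protease of the lysosome, held 3572, 3462, 3542 and 3254 CPM in D and 3476, 3622, 3153 and 2826 CPM in M. The log2 fold change of Ctsd was 0.08 ± 0.09 (interval -0.12 to 0.29; edgeR adjusted p = 0.523), and its sign turned on library totals, TPM and FPKM. None of these 4 members passed in any of the 22 other analyses, and the intervals do not show that the groups were equal.

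Annotated genes overlap some members: Neurl2 and Pltp overlap Ctsa, Fdft1 overlaps Ctsb and Nelfcd overlaps Ctsz. The sources used here do not say whether counting used strand, so reads from the overlaps cannot be assigned with certainty.

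On the TPM scale, in which counts are divided by transcript length so that genes can be compared, the members spanned a wide range of levels. Ctsd was the most abundant in both groups, at 3315 ± 186 TPM in D and 3335 ± 333 TPM in M (SD, n = 4), and 17 of 17890 genes had a higher mean TPM. Ctsb followed at 1001 ± 176 and 1134 ± 217 TPM, and Ctsz at 487 ± 85.6 and 525 ± 21.8 TPM. Ctss stood next at 301 ± 70.9 TPM in D and 430 ± 96.4 TPM in M, and Ctsa at 191 ± 19.3 and 225 ± 27.0 TPM. Up to this place the order was the same in D and M, although the ranges of Ctsz and Ctss overlapped in both.

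The lower end of the order differed between the groups. In D the sequence was Ctsl at 186 ± 32.8 TPM, Ctsh at 183 ± 22.7 TPM, Ctsc at 84.2 ± 13.9 TPM and Lgmn at 63.9 ± 15.1 TPM. In M it was Ctsh at 162 ± 4.30 TPM, Ctsl at 139 ± 12.1 TPM, Lgmn at 107 ± 22.6 TPM and Ctsc at 60.7 ± 8.18 TPM. In D the neighbours Ctsa and Ctsl, Ctsl and Ctsh, and Ctsc and Lgmn overlapped in range, so their order there lay within the spread, while in M none of these 4 lowest members overlapped with its neighbour. The TPM of Ctsc depends on how reads were shared among its transcripts: a predicted transcript, XM_006507320, took 1.67% to 3.80% of the counts of Ctsc but 16.7% to 31.3% of its TPM.

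**Figure D3:**
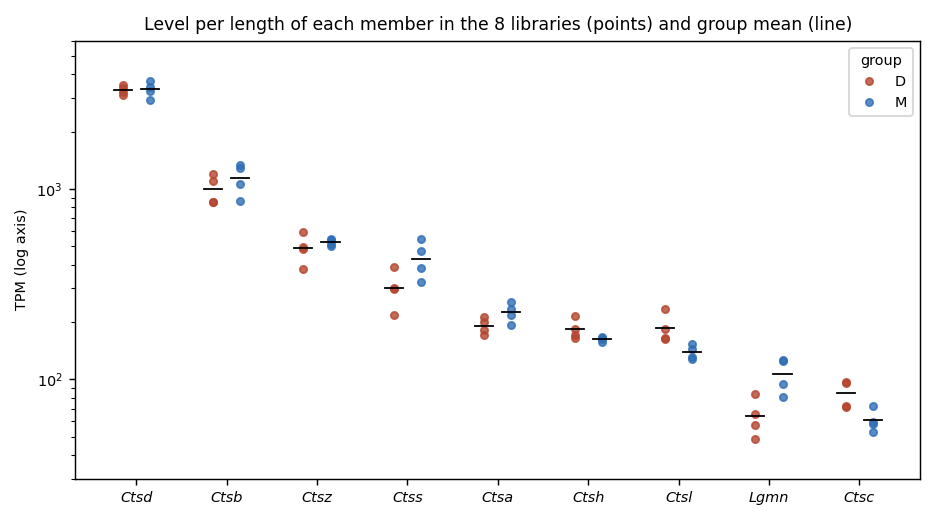
TPM of the 9 members in each library on a log10 axis, with lines at the group means, in the order of the mean over all 8. Ctsd stands highest in all 8 libraries, and Ctsc lies above Lgmn in D replicates 2 to 4 and below it in every M library.

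Ratios of members within a library do not depend on how libraries are scaled to each other. The TPM ratio of Ctsc to Lgmn was 0.856, 1.47, 1.50 and 1.67 in D replicates 1 to 4 and 0.421, 0.476, 0.761 and 0.721 in M replicates 1 to 4. The ratio of Ctsl to Ctss was 0.421, 0.777, 0.750 and 0.615 in D and 0.278, 0.282, 0.374 and 0.395 in M. In both ratios all D values were above all M values. The ratio of Ctsd to Ctsb ran from 2.95 to 3.79 in D and from 2.67 to 3.38 in M, so these ranges overlapped. The ratios were formed from members with known changes and are descriptions.

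Together the members took 0.645%, 0.606%, 0.530% and 0.544% of all TPM in D and 0.647%, 0.685%, 0.593% and 0.522% in M. Ctsd alone made up 53.2% to 60.8% of that sum, and the ranges of the groups overlapped. Without Ctsd the members summed to 2924, 2665, 2076 and 2326 TPM in D replicates 1 to 4. In M replicates 1 to 4 they summed to 3031, 3141, 2648 and 2309 TPM, so the other members also moved the total. Within M, replicate 4 was the lowest library for 7 of the 9 members, the exceptions being Ctsc and Ctsh. Within D, replicate 3 was the lowest for 3 members (Ctss, Ctsz and Lgmn) and replicate 4 for 3 others (Ctsa, Ctsb and Ctsd). The coefficient of variation of CPM was smallest for Ctsd in D, at 4.14%, and for Ctsh in M, at 2.83%. It was 20.6% in D and 22.7% in M for Lgmn, and 20.2% and 23.3% for Ctss.

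RefSeq promoter windows, 250 bases before to 50 bases after an annotated start on GRCm38.p6, were available for 7 members in 9 windows, and Ctsb and Ctsh had none. They were searched on both strands for CACGTG, the core of the CLEAR element through which Tfeb, Tfe3 and Mitf act on lysosomal genes, and for the Mitf-type form TCATGTG. Windows of the most changed members, Ctsc, Ctsl and Lgmn, and of the most abundant one, Ctsd, are shown 5′ to 3′ on the strand of the gene, with each CACGTG in capitals.
Ctsc, chr7:88277835-88278134, plus strand: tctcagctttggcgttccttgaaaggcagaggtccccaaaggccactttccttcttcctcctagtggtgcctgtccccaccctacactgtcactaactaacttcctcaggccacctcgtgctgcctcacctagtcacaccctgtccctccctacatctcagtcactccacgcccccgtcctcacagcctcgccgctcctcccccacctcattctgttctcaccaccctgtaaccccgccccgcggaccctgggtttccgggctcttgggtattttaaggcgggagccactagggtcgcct
Ctsl, chr13:64370471-64370770, minus strand: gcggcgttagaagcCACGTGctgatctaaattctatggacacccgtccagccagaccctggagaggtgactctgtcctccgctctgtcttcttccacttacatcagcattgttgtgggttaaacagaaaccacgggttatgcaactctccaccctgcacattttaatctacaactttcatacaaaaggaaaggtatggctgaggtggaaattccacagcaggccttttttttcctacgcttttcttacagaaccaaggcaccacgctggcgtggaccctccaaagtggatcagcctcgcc
Lgmn, chr12:102439679-102439978, minus strand: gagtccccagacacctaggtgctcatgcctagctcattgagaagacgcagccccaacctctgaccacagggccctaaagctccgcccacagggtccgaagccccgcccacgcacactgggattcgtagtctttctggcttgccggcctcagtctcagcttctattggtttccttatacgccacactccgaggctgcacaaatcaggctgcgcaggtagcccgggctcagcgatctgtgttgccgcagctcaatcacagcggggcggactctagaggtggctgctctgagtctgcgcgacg
Lgmn, chr12:102439043-102439342, minus strand: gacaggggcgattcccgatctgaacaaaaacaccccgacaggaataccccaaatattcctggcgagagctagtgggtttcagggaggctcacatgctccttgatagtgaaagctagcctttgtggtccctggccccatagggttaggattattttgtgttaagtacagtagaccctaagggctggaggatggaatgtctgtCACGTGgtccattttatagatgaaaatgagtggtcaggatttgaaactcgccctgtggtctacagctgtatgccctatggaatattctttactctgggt
Ctsd, chr7:142387778-142388077, minus strand: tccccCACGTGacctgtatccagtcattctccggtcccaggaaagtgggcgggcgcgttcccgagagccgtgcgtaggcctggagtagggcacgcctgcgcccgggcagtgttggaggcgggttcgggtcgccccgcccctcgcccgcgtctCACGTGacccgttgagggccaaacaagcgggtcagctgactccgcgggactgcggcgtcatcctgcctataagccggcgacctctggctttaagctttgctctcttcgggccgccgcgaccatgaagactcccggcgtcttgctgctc
CACGTG was present in 4 of the 9 windows, in 1 of the Ctsa windows, in Ctsd, in Ctsl and in 1 of the Lgmn windows. Among 32851 windows of all genes, 7.15% held it. In Ctsd the matches began at positions -245 and -98 from the start, in Ctsl at -236 and in the Lgmn window at -49. TCATGTG was found in 2 windows, of Ctsa and Ctss, and in 3.77% of all windows. The longer form of the CLEAR element was found in 0 of the 9 windows and in 0.326% of all windows. The CACGTG matches of the members were therefore of the core alone. The windows with CACGTG belonged to a gene that was higher in D (Ctsl), one that was lower (Lgmn) and to Ctsa and Ctsd, which were not called. The starts of the Ctsa, Ctsl and Lgmn windows with CACGTG lie inside the annotated gene, and so do the CACGTG matches in them. The other Ctsa and Lgmn windows, at the annotated start of the gene, held no CACGTG. The start of the Ctsd window is the annotated start of the gene, so its matches lie before the gene. The Ctsc window holds none of these letter strings.

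The file lists 20 transcripts of the members, 13 curated and 7 predicted, and 17 had enough counts to be tested. At this level 4.08% of 32312 transcripts were called by edgeR in either direction. NM_009982 of Ctsc, with 76.9% to 82.7% of the counts of the gene, was higher in D (log2 fold change 0.70 ± 0.12, edgeR adjusted p = 0.0278). It was 1 of 17 members' transcripts called, beside 2.28% of all transcripts called higher, and this call was lost on library totals (0.60, adjusted p = 0.0536), with the replicate block (0.70, adjusted p = 0.0891), without D replicate 2 or 4, without M replicate 1, 2 or 4 (adjusted p = 0.0674 to 0.0926 over these 5 fits), and without D replicates 1 and 3 together (0.85, adjusted p = 0.0521). No transcript of the members was called lower, beside 1.80% of all. The main Ctsl transcript, XM_006517080, had 0.51 ± 0.12 (adjusted p = 0.0696), NM_007801 of Ctsh 0.25 ± 0.08 (adjusted p = 0.125), and NM_011175 of Lgmn -0.69 ± 0.21 (adjusted p = 0.143), all from edgeR.

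Transcripts of a gene can also change unequally. In edgeR's diffSpliceDGE test, 144 of 7457 genes (1.93%) were called, and 0 of the 7 members with over 1 transcript, with 0 at an unadjusted p under 0.05 and a smallest p of 0.199 for Ctss. With no filter on low counts Ctss had an unadjusted p of 0.00511 and an adjusted p of 0.122, the smallest adjusted p over all settings. For Ctss, NM_021281 took 85.0% to 90.7% of the gene's counts in D and 91.2% to 93.8% in M, a narrow gap. How many of all transcripts have ranges that stay apart was not counted. The predicted Ctss transcript XM_006500975 held estimated counts of 233 in D replicate 1 and 92.6 in D replicate 3 and 0 in the other 6 libraries. These were 4.30% and 3.09% of the gene's counts, so the gap for NM_021281 depends on how reads were shared among the transcripts. The shares of Ctsb depended on the unit, since the predicted transcript XM_017315833 took 64.2% to 68.6% of the counts but 85.5% to 87.8% of the TPM.

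**Figure D4:**
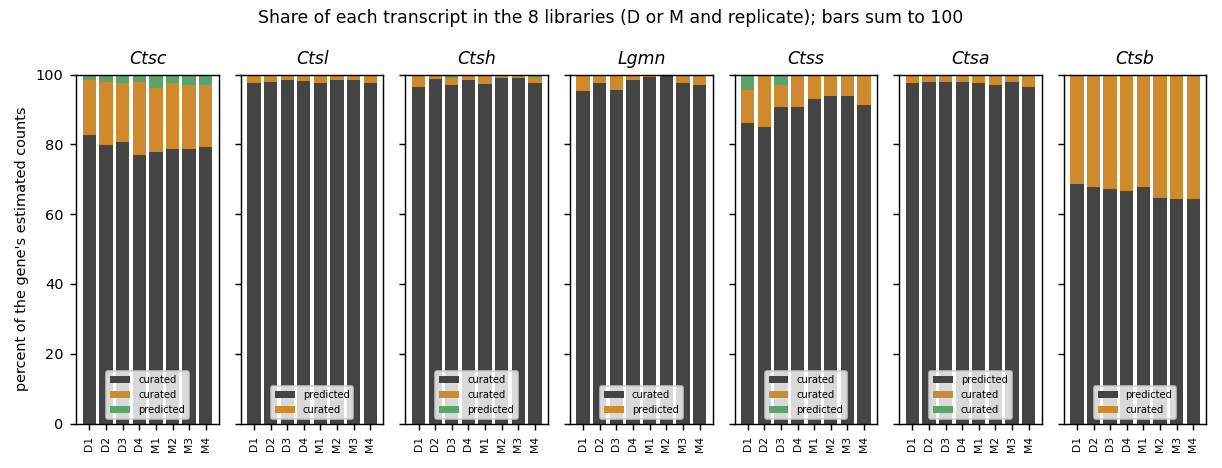
Stacked bars of the share (percent) of a gene's estimated counts taken by each of its curated or predicted transcripts in the 4 D and 4 M libraries, for the 7 members with over 1 transcript. The main Ctss transcript has a smaller share in every D library than in any M library, by a narrow gap (up to 90.7% in D, from 91.2% in M). Ctss was not called for unequal change.

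Counts of called genes in the lists and marker sets below stand beside 17.4% of all tested genes higher and 17.3% lower. No list was tested as a set. Of the other cathepsins on the list, 6 of 8 in the table could be tested, 1 was higher, 1 lower and 4 were not called, with a median log2 fold change of -0.23. Ctsw, cathepsin W of T and NK cells, was higher at 4.19 ± 0.938 against 2.74 ± 0.265 CPM (edgeR adjusted p = 0.0242, called in 13 of 22 other analyses). Ctso was lower at 14.0 ± 0.847 against 17.2 ± 1.04 CPM (edgeR adjusted p = 0.0222, 15 of 22). With the replicate number as a block 2 genes of this list were lower, the second being Ctsk (log2 fold change -0.93, edgeR adjusted p = 0.00242), which stood at -0.96 without the block (adjusted p = 0.0593).

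Among the cystatins and stefins, inhibitors of the cysteine cathepsins, 10 genes were tested, 2 were higher, 1 was lower and 7 were not called, and the median log2 fold change was 0.68. Cst3, encoding the secreted inhibitor cystatin C, was higher at 178 ± 9.33 against 139 ± 11.7 CPM (log2 fold change 0.36 ± 0.08, edgeR adjusted p = 0.00528), in 22 of 22 other analyses. Cstb, the intracellular inhibitor cystatin B, was lower at 129 ± 18.6 against 174 ± 34.9 CPM (edgeR adjusted p = 0.0461, 11 of 22). Csta2 was higher at 11.8 ± 6.00 against 5.60 ± 1.07 CPM (edgeR adjusted p = 0.0389, 9 of 22), but the stefin genes have near-identical copies and their counts are uncertain. Most tested genes of this list are such copies, so the median of 0.68 rests largely on them and does not describe the inhibitors as a class.

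In the list of sorting proteins that bring hydrolases to the lysosome, 13 genes were tested, 1 was higher, 2 were lower and 10 were not called, with a median of -0.10. Gga2, an adaptor that packs mannose 6-phosphate receptors at the Golgi, was lower at 39.1 ± 3.55 against 80.4 ± 5.07 CPM (log2 fold change -1.04 ± 0.08, edgeR adjusted p = 2.14e-05), in 22 of 22 other analyses. Gnptab, which encodes part of the enzyme that adds the mannose 6-phosphate tag, was lower at 77.9 ± 4.06 against 89.9 ± 2.20 CPM (edgeR adjusted p = 0.0239, 16 of 22). Sort1, encoding the sorting receptor sortilin, was higher at 280 ± 66.2 against 208 ± 13.4 CPM (edgeR adjusted p = 0.0336, 11 of 22), and its sign turned with the most abundant or the curated transcripts alone.

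Of the 4 MiT/TFE factors, transcription factors of lysosomal genes, 2 were higher and 2 were not called. Tfe3 was higher at 124 ± 8.91 against 98.8 ± 0.795 CPM (edgeR adjusted p = 0.00433, 22 of 22), and Mitf at 21.3 ± 4.65 against 15.2 ± 1.57 CPM (edgeR adjusted p = 0.0286, 11 of 21). A list of 9 other tested peptidases was drawn up as lysosomal, but 1 of them, Pgpep1, is a cytosolic enzyme. Of the other 8, 2 were higher, 3 lower and 3 not called, with a median of -0.05. Dpp7 was lower at 31.1 ± 4.86 against 43.0 ± 5.27 CPM (edgeR adjusted p = 0.0123, 22 of 22), as was Tpp1, the tripeptidyl peptidase, at 170 ± 9.33 against 201 ± 11.2 CPM (edgeR adjusted p = 0.0192, 18 of 22). Ggh, gamma-glutamyl hydrolase, was higher at 39.5 ± 3.22 against 29.5 ± 1.59 CPM (edgeR adjusted p = 0.00283, 22 of 22). Pgpep1 was lower at 8.48 ± 0.573 against 18.0 ± 2.08 CPM (edgeR adjusted p = 7.97e-05, 22 of 22). Of the partners of cathepsin A, Neu1 was higher at 157 ± 19.3 against 128 ± 15.6 CPM, at the edge of the threshold (edgeR adjusted p = 0.0496, 7 of 22), and the other 2 were not called.

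Genes that act beside Ctsc were grouped as granule proteases, with Mpo, a granule peroxidase, on the same list. Of 8 tested, 3 were higher and 5 not called, with a median of 0.40. Mcpt8, a protease of basophils, was higher at 202 ± 46.2 against 67.5 ± 11.1 CPM (log2 fold change 1.58 ± 0.17, edgeR adjusted p = 0.000161, 22 of 22). It is itself one of the 6 basophil and mast cell markers, whose summed CPM was 703 to 1067 in D and 343 to 435 in M. Gzmb was higher at 8.48 ± 3.54 against 2.26 ± 0.341 CPM (edgeR adjusted p = 0.000745, 22 of 22), and Gzmk at 2.04 ± 1.10 against 0.161 ± 0.0465 CPM (edgeR adjusted p = 0.000379, 21 of 21). The M level of Gzmk amounts to a few counts per library, and the gene passed the filter on low counts only through the D libraries. Because Gzmk entered the test only through D, its call, its place among the 3 higher genes and the 21 of 21 carry little weight. The fold change of Gzmk is also imprecise, and the gene could be tested in 21 of the 22 alternatives. The neutrophil elastase gene Elane was at 447 ± 57.3 against 377 ± 59.7 CPM and the cathepsin G gene Ctsg at 247 ± 10.1 against 253 ± 28.6 CPM, neither called. With the replicate block Elane was called higher (log2 fold change 0.25, edgeR adjusted p = 0.0241).

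Of 11 genes of class II processing, in which Ctss and Lgmn take part, 3 were lower and 8 not called, with a median of -0.27. H2-Ob was lower at 20.8 ± 7.11 against 63.1 ± 3.51 CPM (log2 fold change -1.60 ± 0.22, edgeR adjusted p = 0.000803, 22 of 22). Ciita, the class II transactivator, was lower at 11.5 ± 3.74 against 20.2 ± 1.62 CPM (edgeR adjusted p = 0.0164, 21 of 22). H2-Oa was lower at 3.80 ± 0.415 against 5.08 ± 0.318 CPM (edgeR adjusted p = 0.0336), but only in 11 of 22 other analyses, and it was not called with the replicate block (edgeR adjusted p = 0.0588), which left 2 class II genes lower. The invariant chain gene Cd74 was at 182 ± 52.9 against 253 ± 27.5 CPM and was not called (edgeR adjusted p = 0.0975). The summed CPM of the class II list was 352 to 639 in D and 608 to 731 in M, so its ranges overlapped. B cell and dendritic cell markers were lower in D. Their summed CPM was 59.9 to 210 in D and 1009 to 1315 in M for B cells (7 of 9 lower). For dendritic cells it was 37.4 to 87.9 in D and 111 to 129 in M (4 of 6 lower).

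Macrophage markers were read to check the label of the cultures. Itgam was at a mean of 929 TPM in D and 777 in M, Cd68 at 268 and 304 and Csf1r at 98.1 and 80.5, but C1qa was at 3.48 and 1.34 and Mertk at 0.303 and 0.455. The neutrophil genes S100a9 (69253 and 61080 TPM) and S100a8 (63855 and 49963 TPM) were far above these. Summed CPM of the macrophage markers was 2615 to 3460 in D and 2291 to 2489 in M (9 of 14 higher, 1 lower). Itgam, which neutrophils also express, made up 76.5% to 81.8% of that sum. Without it the sum was 612 to 705 CPM in D and 441 to 576 CPM in M (8 of 13 higher, 1 lower). For neutrophil markers it was 45284 to 70254 and 39138 to 41002 (11 of 14 higher), and for monocyte markers 2148 to 2942 and 1432 to 1876 (3 of 5 higher).

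Basophil and mast cell markers summed to 703 to 1067 CPM in D and 343 to 435 CPM in M (6 of 6 higher), and T and NK cell markers to 46.5 to 48.4 and 26.9 to 30.4 CPM (4 of 5 tested higher, with Ncr1 under 1 CPM in all libraries). The B cell and dendritic cell sums, given above, were lower in every D library than in any M library. D replicate 3 had the highest neutrophil sum and the lowest B cell sum of the D libraries, and it was also the lowest D library for Lgmn and Ctss. The part of these marker changes in the values of Ctsc, Ctsl, Ctsh, Lgmn, Ctss and the gene lists was not tested. In the first principal component, which held 64.7% of the variance, the D libraries ran from -54.5 for replicate 3 to -16.0 for replicate 1 and the M libraries from 27.9 to 37.6.

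**Figure D5:**
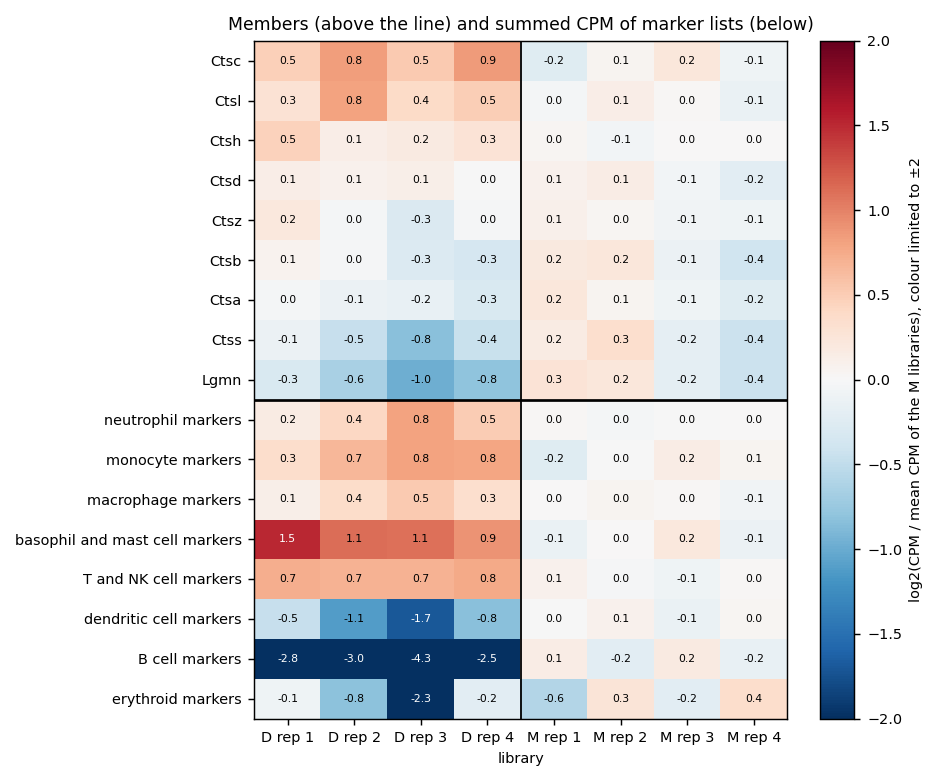
Log2 ratio of each library's CPM to the mean CPM of the M libraries, for the 9 members (rows above the line) and the summed CPM of 8 marker lists (rows below), with the 8 libraries as columns and colour limited to ±2. Red rows are higher in D and blue rows lower; the B cell sum is lower in all 4 D libraries, and D replicate 3 shows the lowest values of Lgmn, Ctss and the B cell, dendritic cell and erythroid sums.

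The tested genes whose log2 CPM was most like that of Ctsd over the 8 libraries were Tnfrsf1b (Pearson 0.958), Tmem106a (0.947), Znrf2 (0.939), Hmgb3 (0.935) and Sh3bgrl (0.930). For Ctsc they were Smim15 (0.991), Pafah1b1 (0.987), Il9r (0.986), Fundc1 (0.984) and Tmem141 (0.981). The 8 points of each correlation share their libraries and the D and M groups, and the values are given as descriptions.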

How the data were processed

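RNA of 8 first-phase libraries was analysed. Per the design text of the series, the submitters filtered reads with SOAPnuke 1.5.6, used an aligner spelled HISTA2 2.1.0 with mm10, and used limma 3.66.0; the submitters' processing notes also name GRCm38. Which quantifier, annotation release and strand setting were used is not given in the sources used here. Estimated counts for each RefSeq transcript, without normalization, are what the authors deposited as read counts, per the file headers. The deposited TPM values take transcript length into account and add up to the same total in each library. FPKM values, also deposited, are scaled to length and to library size. Normalized counts (8 columns) and group means (8 columns) were not used.

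The table holds 60072 rows, in which 1575 second entries of a transcript were summed with the first, and covers 17890 genes. Predicted transcripts took 19.6% of counts. Gene counts are the rounded sums of the estimated counts of a gene's transcripts. Library totals were 19048195 to 20027967. Genes were filtered with filterByExpr (minimum count 10, minimum total 15), which left 12839, and D and M were compared by edgeR 4.0.16's quasi-likelihood test (TMM, robust, group only; 4 libraries each) in R 4.3.3 with Benjamini-Hochberg adjustment over all genes tested. The biological coefficient of variation was 12.4%. Transcripts were tested in the same way, and unequal change among them with diffSpliceDGE. Scripts were tested on simulated data. No library was a copy of another: chi-square values per gene between replicates were 6.49 to 67.0, above the level of sampling noise.

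The 22 alternatives used the test of DESeq2 1.42.0, its size factors in edgeR, library totals, upper-quartile factors, voom with limma 3.58.1, no filter (at least 1 count), a minimum count of 50, limma-trend on log2 TPM (pseudocounts 1 and 0.1) and log2 FPKM (pseudocount 1; minimum 1), the most abundant or curated transcripts alone, the replicate number as a block, each library left out, and D replicates 1 and 3 left out together. Both groups carry replicate numbers 1 to 4 in the labels. Deviations of same-numbered libraries from their group means correlated at 0.115, 0.131, 0.118 and 0.182, and those of other pairs at -0.178 to 0.0735. The numbers may therefore pair the libraries, but no label says so. These correlations are weak and, being centred within each group, are tied to each other. The main test left such a pairing out, and the replicate block was run as an alternative.

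The members, gene lists and alternatives were chosen with earlier results of these data known. Named genes are the 9 members, up to 4 called genes with the lowest p of each pathway list, and the 5 genes most like the most abundant member and the member with the lowest p. Elane, Ctsg and Cd74 were named after their values were seen, as were the marker genes given in TPM, and the counts without Pgpep1 and the sum without Itgam were added then.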

Additional observations from a re-analysis of the deposited data

How the results depend on the processing

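Over the 22 alternatives Ctsc kept its call and direction, Ctsl lost its call in 1, Lgmn in 5 and Ctsh in 8, and Ctss gained one in 2. The count of all genes called fell from 4456 to 2092 with the most abundant transcript alone and to 2531 with curated transcripts alone, where fewer counts per gene were tested; the cause was not tested. With the replicate number as a block, 2 members were called lower (Lgmn and Ctss) in place of 1, and 0 transcripts of the members higher in place of 1; the block changed no other call among the members, and among the list genes it ended the call of H2-Oa and added Ctsk and Elane. Leaving out 1 library at a time gave 0 to 2 members lower (0 when D replicate 3, D replicate 4, M replicate 1 or M replicate 2 was the library left out, and 2 when it was M replicate 4) and 0 to 2 transcripts higher (2 without D replicate 1). Without D replicates 1 and 3 together, 0 members were called lower and 0 transcripts higher, and on library totals 0 transcripts were higher. Of all genes tested, 34.7% were called in the main test and 37.5% with the block. That share was 26.7% to 41.3% without 1 library and 33.1% without D replicates 1 and 3. The share of all transcripts called was not counted for these fits. Ctsd turned from 0.08 to -0.024 on library totals, to -0.0046 on log2 TPM with either pseudocount and to -0.020 on log2 FPKM. Ctsz, at -0.02, ran from -0.089 to 0.072 over the fits without 1 library, and turned positive without D replicate 3 (0.072) and without M replicate 1 (0.011). Sort1 turned from 0.43 to -0.10 with the most abundant transcript alone and to -0.087 with curated transcripts alone. No member was called in the direction opposite to its main value.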

Other observations

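Ctsk, the collagen-degrading cathepsin of osteoclasts, was at 6.94 ± 2.38 CPM in D and 13.6 ± 5.71 CPM in M (SD, n = 4) and missed the threshold (edgeR adjusted p = 0.0593; 0.00242 with the replicate block). Of the osteoclast markers, Calcr, Ocstamp, Dcstamp and Oscar were under 1 CPM in all 8 libraries. The summed CPM of that list, 1669 to 2875 in D and 1190 to 1374 in M, includes Mmp9, which neutrophils also express, with 1 of 3 tested genes higher and 1 lower. Plasma cell markers summed to 223 to 321 CPM in D and 183 to 205 CPM in M, with 1 of 5 higher and 2 lower. Erythroid markers summed to 915 to 4222 CPM in D and 2971 to 5705 CPM in M.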
